A study of Mus musculus with 6 samples.

Results

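The hypoxia and glycolysis genes of the embryonic mouse kidney are described here across the 6 arrays of the series. The list holds 32 genes, and its members are all probe sets whose platform annotation gives a single gene symbol that is on the list. This rule found 68 of the 45101 probe sets, for 30 of the 32 genes. Eno1 and Gpi1 had no such probe set and are not analysed here. Of the 68, 3 are the array's own Gapdh control probe sets and 6 were too dim to test, with a mean under the filter level, a signal of 14.7. The remaining 59 probe sets, for 29 genes, were tested together with all 27022 probe sets that passed the filter, without regard to group.

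Whole kidneys of embryonic day 12.5 mice were profiled, with 3 arrays for normal and 3 for knockout kidneys. The knockout combines Hoxb7-Cre,Gfp, a recombinase transgene active in the ureteric bud, with loxP sites around exons 2 to 6 of the beta-catenin gene. The labels give the groups as normal and as Hoxb7-Cre,Gfp;beta-catenin deficient, and they name no strain, sex or number of kidneys per sample. Dissected kidneys were sorted at random into vials, so each sample may hold kidneys of several embryos, and the p-values rest on sample-to-sample spread that may be partly technical. The description field of the knockout samples repeats the wording for normal kidneys, and every direction below follows the sample titles. The targeted gene was not lower in the knockout samples: the 3 probe sets of Ctnnb1 (beta-catenin) stood at 0.09, 0.12 and 0.16, all overlapping between the groups, and whether they read the deleted exons is not analysed here, so they do not check the labels. The recombinase is active in part of the organ while the arrays read all of it, so fewer cells of a type and less RNA per cell cannot be told apart. Kidney markers were present on all 6 arrays: 10 of the 11 listed had a probe set and all 10 passed the filter, among them Wt1, Six2, Sall1 and Foxd1, with a summed signal of 6204 to 6858 on normal and 6103 to 6801 on knockout arrays. The deposited values are MAS5 signals on a linear scale, median 24.9 to 32.1 per array, and a difference below is knockout minus normal of the mean log2 signals. MAS5 signals of different probe sets cannot be ranked against each other, so all comparisons are within a probe set. The number of arrays limits the precision.

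Cells sense oxygen through hypoxia-inducible factors (HIFs). The alpha subunits, Hif1a and Epas1 (HIF-2 alpha), are hydroxylated by the prolyl hydroxylases Egln1 and Egln3 when oxygen is present and are then destroyed, so that the factors act mainly when oxygen is low and their activity is set more by protein stability than by mRNA level. Their targets include the angiogenic signal Vegfa, glucose transporters and most enzymes of glycolysis, the pathway that splits glucose to pyruvate, as well as Ldha and Pdk1, which turn pyruvate to lactate and away from mitochondria. The embryonic kidney develops at low oxygen, and its growing vessels depend on Vegfa.

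No member passed the threshold of 0.05 after Benjamini-Hochberg adjustment over all probe sets tested in limma (0 of 59), against 0.581% of all probe sets, and the smallest adjusted p of a member was 0.182. The differences were small and leaned one way: 45 of the 59 probe sets (76.3%) had a log2 difference below 0, against 51.9% of all probe sets tested, and their median was -0.17 against -0.01. At an unadjusted limma p under 0.05 there were 14 lower and 3 higher, against a background of 5.72% lower and 5.74% higher. With each array centred on its median these counts were 5 and 2, without the intensity trend 8 and 2, without normal replicate 2 they were 9 and 2, and without knockout replicate 2 they were 8 and 2. All 3 knockout arrays lay below all 3 normal arrays in 13 of the 59 (22.0%), where 8.69% of all probe sets did so. They lay above in 3 (5.08%), against 9.17%. That count of 13 depends on the scaling: with each array centred on its median it was 4 of 59 (6.78%), against 5.52% of all probe sets, while the median difference stayed at -0.17. Quantile normalization gave 15 (25.4%, against 9.48%). Probe sets of a gene read the same RNA and are not separate evidence. By the brightest probe set of each gene, 21 of 29 genes lay below 0 (72.4%, against 50.6% of the 12464 genes tested), with a median of -0.15.

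**Figure D1:**
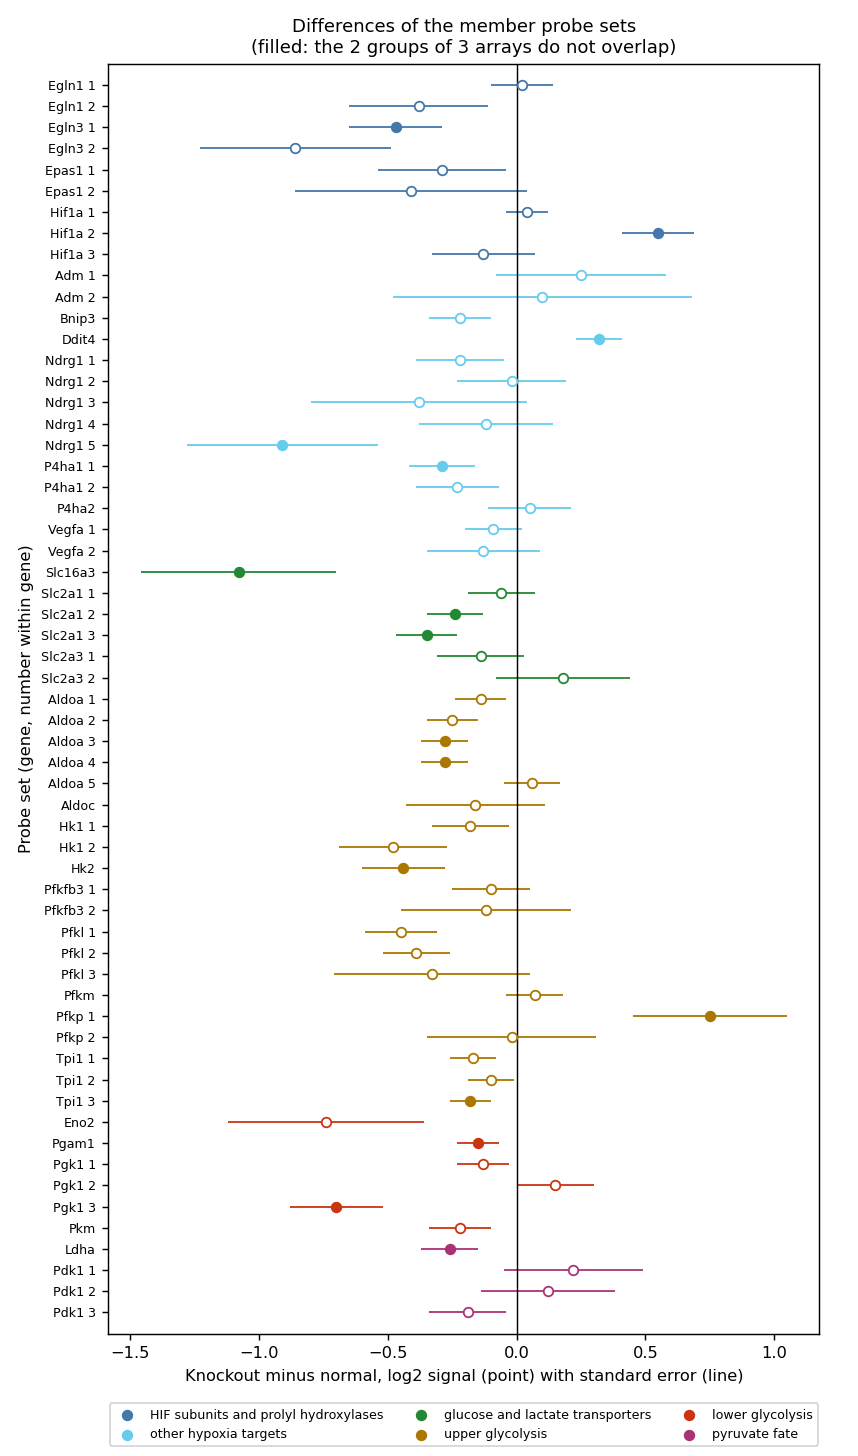
Knockout minus normal log2 signal (x axis) with its standard error for each of the 59 tested probe sets (y axis, grouped and coloured by role; the number after a gene counts its probe sets). Most points lie left of 0; filled points, 13 to the left and 3 to the right, are probe sets whose groups of 3 arrays do not overlap.

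In the glucose and lactate transporters, the glycolytic enzymes and the genes of pyruvate fate, 29 of 36 probe sets (80.6%) were below 0, with a median of -0.18. Among the HIF pathway genes and the other hypoxia targets it was 16 of 23 (69.6%), with a median of -0.13, and 5 of the 16 were probe sets of Ndrg1. By the brightest probe set of each gene, 15 of 18 metabolic genes (83.3%) and 6 of 11 HIF pathway and target genes (54.5%) were below 0, with medians of -0.15 and -0.09, against 50.6% of all genes. The difference between them was not tested. Of the 18 genes with more than 1 tested probe set, 10 had all of them below 0 and 1, Adm, all above, while Hif1a, Egln1, Slc2a3, Aldoa, Pfkp, Pgk1 and Pdk1 had both signs.

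These promoters are shown because their genes span the steps described below, glucose uptake (Slc2a1), trapping (Hk2), glycolysis (Pgk1) and lactate formation and export (Ldha, Slc16a3), with Ddit4 as a target of the opposite sign, and because the core to which the factors bind, ACGTG or GCGTG, can be found by eye. The sequences are from RefSeq (GRCm38.p6), 250 bases before the gene's start, 5′ to 3′ on the gene's strand, with each match to either core on either strand in capitals, so that CACGT and CACGC are the cores of the opposite strand.
Slc2a1: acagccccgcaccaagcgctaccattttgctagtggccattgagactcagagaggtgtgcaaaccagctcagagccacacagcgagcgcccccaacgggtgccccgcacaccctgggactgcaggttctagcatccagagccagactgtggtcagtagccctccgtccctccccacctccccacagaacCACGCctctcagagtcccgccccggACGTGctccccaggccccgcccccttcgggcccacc
Slc16a3: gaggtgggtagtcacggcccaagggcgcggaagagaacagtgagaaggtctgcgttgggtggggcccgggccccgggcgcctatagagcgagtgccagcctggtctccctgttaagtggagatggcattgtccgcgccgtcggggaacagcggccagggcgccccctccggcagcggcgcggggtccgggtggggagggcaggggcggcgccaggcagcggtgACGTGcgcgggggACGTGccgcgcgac
Hk2: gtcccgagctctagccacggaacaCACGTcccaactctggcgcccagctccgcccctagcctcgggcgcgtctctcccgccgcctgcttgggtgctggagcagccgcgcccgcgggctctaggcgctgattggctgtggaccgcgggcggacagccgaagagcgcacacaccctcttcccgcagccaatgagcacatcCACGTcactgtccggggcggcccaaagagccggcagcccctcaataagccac
Pgk1: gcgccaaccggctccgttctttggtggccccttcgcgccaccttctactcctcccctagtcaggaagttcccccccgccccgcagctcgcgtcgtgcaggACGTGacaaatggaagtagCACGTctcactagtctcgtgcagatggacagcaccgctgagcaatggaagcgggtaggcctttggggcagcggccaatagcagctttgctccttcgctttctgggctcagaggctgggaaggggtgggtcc
Ldha: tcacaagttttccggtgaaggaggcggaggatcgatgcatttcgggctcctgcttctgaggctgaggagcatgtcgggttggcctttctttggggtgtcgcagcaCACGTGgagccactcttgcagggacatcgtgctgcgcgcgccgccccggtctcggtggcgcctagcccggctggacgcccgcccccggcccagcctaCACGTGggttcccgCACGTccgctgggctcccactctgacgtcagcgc
Ddit4: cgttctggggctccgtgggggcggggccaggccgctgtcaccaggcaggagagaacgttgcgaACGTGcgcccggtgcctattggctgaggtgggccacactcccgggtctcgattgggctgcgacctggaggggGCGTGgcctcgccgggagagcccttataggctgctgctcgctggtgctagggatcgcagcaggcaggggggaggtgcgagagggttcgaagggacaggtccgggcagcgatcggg
The windows lie at chr4:119108495-119108744 (plus strand) for Slc2a1, chr11:120948817-120949066 (plus strand) for Slc16a3, chr6:82774455-82774704 (minus strand) for Hk2, chrX:106186850-106187099 (plus strand) for Pgk1, chr7:46845554-46845803 (plus strand) for Ldha and chr10:59951771-59952020 (minus strand) for Ddit4. Ldha has 2 starts in the table and the first listed was used. Ldha held 5 matches, of which 4 form the palindrome CACGTG in 2 places, and the other genes held 2 each. In the full windows of 300 bases (250 before and 50 after the start), 34 of 43 windows of the member genes (79.1%) held at least 1 core on either strand, against 43.8% of all 32851 windows. ACGTG alone was in 55.8% against 19.6%, and GCGTG alone in 55.8% against 32.4%. The member windows were also richer in G and C, with a median of 62.3% against 52.7%, and the part of this in the share of matches was not tested. The 43 windows belong to 29 of the 32 genes, so a gene with several starts counts more than once. No window was listed for Epas1, Ndrg1 and Slc2a3. The list holds known HIF targets, so the share of cores is not independent of how its genes were chosen. A match is a run of letters, and the array data say nothing of binding. Ddit4 and Slc16a3, with 2 matches each, had differences of opposite sign.

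The mRNA of the main HIF subunit, Hif1a, was level by its brightest probe set (1427418_a_at), at 1917, 2200 and 2109 on normal replicates 1 to 3 and 2116, 2094 and 2186 on knockout replicates 1 to 3. The groups overlapped, with the lowest and the highest value both on normal arrays. The log2 difference was 0.04 (SE 0.08; limma adjusted p = 0.866). Another Hif1a probe set (1416035_at) read 240, 329 and 337 in normal and 441, 461 and 416 in knockout kidneys. Here every knockout array lay above every normal array, with a log2 difference of 0.55 (SE 0.14), the smallest p of all members (limma unadjusted p = 0.00325, adjusted p = 0.182). The third tested probe set stood at -0.13 (SE 0.20), and the one left over was too dim to test. The Hif1a probe sets therefore disagree, and which transcripts each one reads is not analysed here.

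Epas1, the subunit typical of endothelial and interstitial cells, was read by 1435436_at at 653, 340 and 344 in normal and 412, 360 and 281 in knockout kidneys. Normal replicate 1 stood far above the other 5 arrays, and the groups overlapped. The log2 difference of -0.29 (SE 0.25; limma adjusted p = 0.673) was 0.02 without that array. Endothelial markers were also highest on normal replicate 1, with a summed signal of 2389 over 9 genes against 1594 to 1903 on the other arrays, and the part of this in the Epas1 value was not tested.

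Egln3, a prolyl hydroxylase that HIF itself induces, had the most negative differences among the HIF subunits and hydroxylases. Its brighter probe set (1418649_at) read 88.8, 95.8 and 112 in normal and 64.4, 84.2 and 66.3 in knockout kidneys, with no overlap. The mean was 98.8 ± 11.8 in normal and 71.6 ± 10.9 in knockout kidneys (SD, n = 3 each), which is a log2 difference of -0.47 (SE 0.18; limma adjusted p = 0.391). The dimmer one (1418648_at) read 35.7, 36.4 and 30.5 against 14.2, 32.2 and 14.5, a difference of -0.86 (SE 0.37; limma adjusted p = 0.431). On it, knockout replicates 1 and 3 were just under the filter level of 14.7, and knockout replicate 2 overlapped the normal arrays. Egln1, the main oxygen sensor in most tissues, stood at 0.02 (SE 0.12) by its brighter probe set and at -0.38 (SE 0.27) by the other, on which normal replicate 1 read 370 and the 5 other arrays 158 to 205.

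Vegfa, the endothelial growth factor, differed little. Its brighter probe set (1420909_at) read 240, 258 and 231 in normal and 239, 235 and 211 in knockout kidneys. The groups overlapped, and the log2 difference was -0.09 (SE 0.11; limma adjusted p = 0.777). The other probe set, at -0.13 (SE 0.22), overlapped too.

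Ddit4, an inhibitor of the growth kinase mTORC1 that is induced by hypoxia and by other stresses and glucocorticoids, was the one hypoxia target outside glycolysis with higher values on every knockout array. Its single probe set (1428306_at) read 490, 445 and 506 in normal and 600, 574 and 624 in knockout kidneys. The means were 481 ± 31.8 and 599 ± 25.0 (SD, n = 3 per group). The difference was 0.32 on the log2 scale (SE 0.09; limma adjusted p = 0.241). It missed the threshold, and it lay between 0.27 and 0.36 with any 1 array left out. Immediate early genes such as Fos, Jun and Egr1, which respond to handling and stress, had a summed signal of 1552 to 1983 in normal and 1647 to 1786 in knockout kidneys over 8 genes. Of the 8, Atf3 (0.59, SE 0.28) and Fos (0.15, SE 0.24) were higher on every knockout array, against 10.2% of all genes by the brightest probe set, and the part of a stress response in the Ddit4 value was not tested.

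The other hypoxia targets went both ways. P4ha1, a collagen prolyl hydroxylase, read 272, 233 and 208 in normal and 197, 188 and 196 in knockout kidneys by its brighter probe set (1452094_at). Every knockout array lay below every normal one, narrowly, with a difference of -0.29 (SE 0.13; limma adjusted p = 0.438). Its relative P4ha2 stood at 0.05 (SE 0.16). Bnip3, a mediator of mitochondrial autophagy, read 467, 538 and 499 against 388, 399 and 514, so that knockout replicates 1 and 2 were low and knockout replicate 3 lay within the normal range. Adm, the vasodilator adrenomedullin, stood at 0.25 (SE 0.33) and 0.10 (SE 0.58), with values from 8.1 to 36.2 that partly lie below the filter level.

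Ndrg1, a stress-responsive gene induced by hypoxia, had 5 tested probe sets, all below 0, from -0.91 to -0.02. The brightest (1456174_x_at) read 82.8, 77.9 and 77.6 in normal and 59.7, 78.3 and 67.5 in knockout kidneys. Knockout replicate 2 lay within the normal range, and the difference was -0.22 (SE 0.17; limma adjusted p = 0.645). The largest difference was on 1450977_s_at, at 35.6, 25.9 and 38.7 against 25.0, 11.3 and 19.1, with no overlap (-0.91, SE 0.37; limma adjusted p = 0.410). Knockout replicate 2 was under the filter level there, so the size of that difference is poorly measured.

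Slc16a3, the MCT4 transporter that exports lactate from strongly glycolytic cells, had the largest difference of the 59 tested probe sets, a rank that rests on normal replicate 1. Its probe set (1449005_at) read 192, 74.6 and 59.7 in normal and 45.7, 45.2 and 44.0 in knockout kidneys. The knockout arrays lay close together below all normal arrays, while normal replicate 1 was far above the other 2. The means were 109 ± 72.6 and 45.0 ± 0.874 (SD, n = 3 each), which is a log2 difference of -1.08 (SE 0.38; limma adjusted p = 0.357). Without normal replicate 1 the difference was -0.57 (adjusted p = 0.409 in the limma fit without that array), smaller than those of Pgk1 (-0.91) and Pfkp (1.03) in that fit. With the arrays centred on their median it was -1.07 and passed (limma adjusted p = 0.0258), the 1 member to do so.

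Slc2a1, the widespread glucose transporter GLUT1, had 3 probe sets, all below 0 but unequal. The brightest (1434773_a_at) read 866, 1224 and 1116 in normal and 962, 985 and 1097 in knockout kidneys, with full overlap and a difference of -0.06 (SE 0.13; limma adjusted p = 0.880), which was 0.04 without normal replicate 2. On 1426600_at the values were 444, 353 and 370 against 314, 272 and 328. There the knockout arrays lay below the normal ones, with a difference of -0.35 (SE 0.12; limma adjusted p = 0.354). On 1426599_a_at the groups also did not overlap, with a difference of -0.24 (SE 0.11). Slc2a3, the high-affinity transporter GLUT3, overlapped between the groups on both tested probe sets (-0.14, SE 0.17, and 0.18, SE 0.26), and 2 more were too dim to test.

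**Figure D2:**
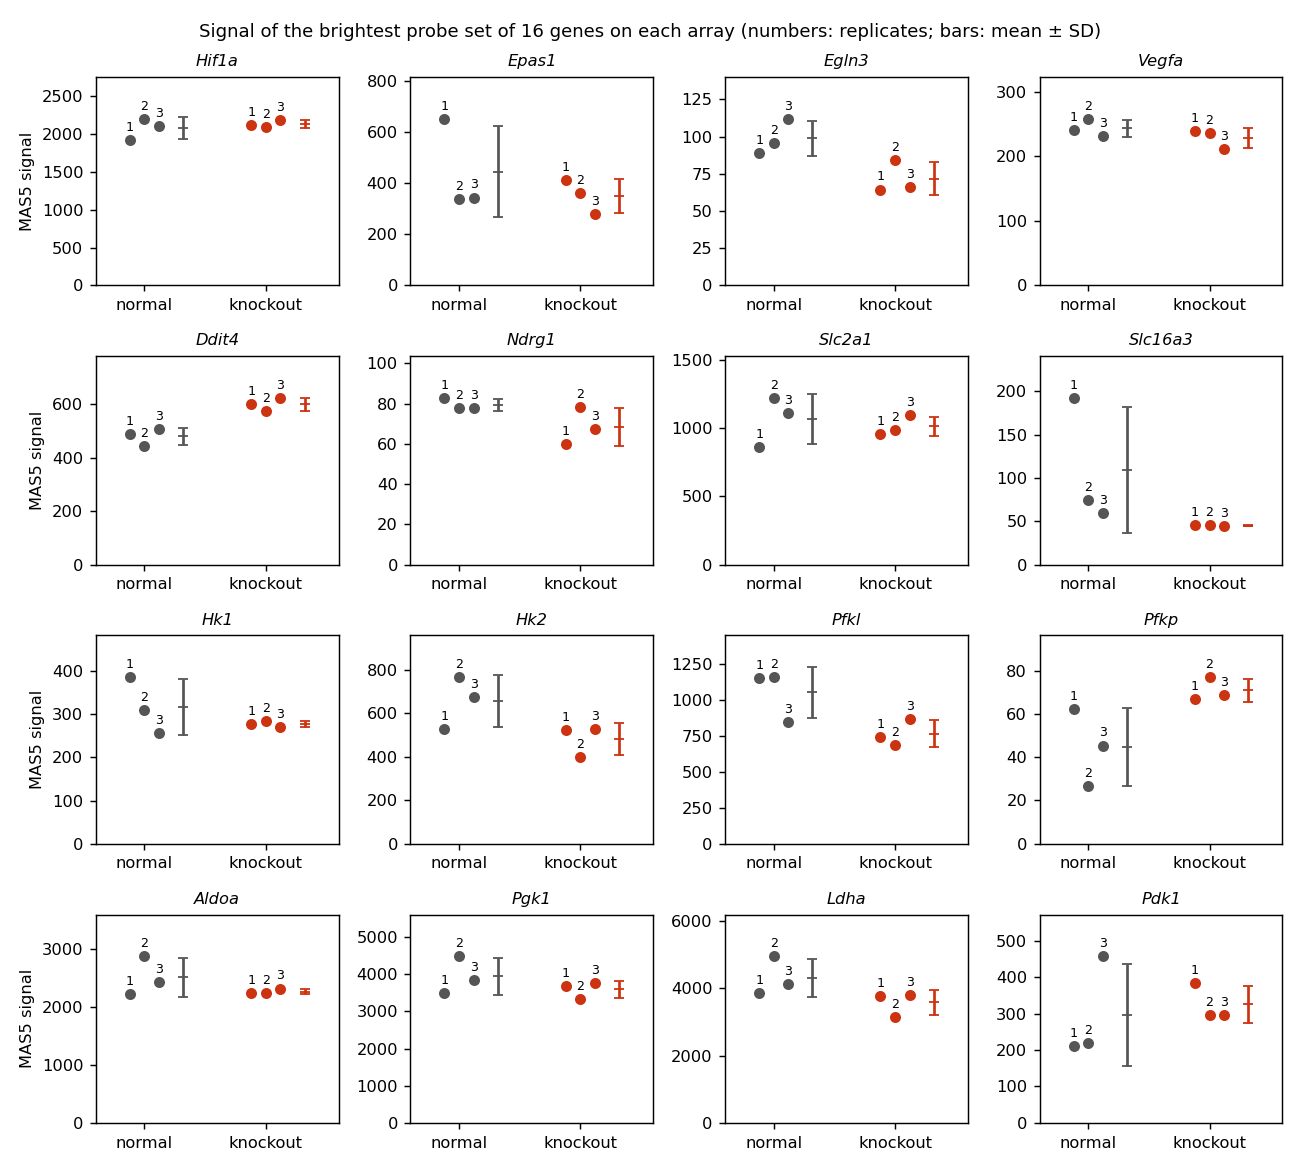
MAS5 signal (y axis, linear, starting at 0) of the brightest tested probe set of each of 16 genes on normal and knockout arrays (x axis). Points are arrays with their replicate number, and bars give the mean ± SD over 3 arrays. Ddit4 and Pfkp lie higher on all knockout arrays, Egln3, Slc16a3, Hk2 and Ldha lower, and single normal arrays stand out for Epas1, Slc16a3 and Pdk1.

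Upper glycolysis, from the trapping of glucose to the triose phosphates, had 17 of 20 probe sets below 0 (85.0%, against 51.9% of all probe sets). The median of these 20 probe sets, of 9 genes, was -0.18, and 0 passed over all probe sets tested in limma. At an unadjusted limma p under 0.05 there were 7 lower and 1 higher, against 5.72% and 5.74% of all probe sets. The 7 were probe sets of Hk1, Hk2, Pfkl and Aldoa. By the brightest probe set, 7 of 9 genes were below 0, against 50.6% of all genes. At that p 2 of them were lower and 1 higher, against 5.57% and 6.14%. Hk2, the inducible hexokinase that commits glucose to the pathway, read 528, 767 and 675 in normal and 525, 397 and 526 in knockout kidneys (1422612_at). The groups did not overlap, but normal replicate 1 lay next to knockout replicates 1 and 3. The means were 657 ± 120 and 483 ± 73.8 (SD, n = 3 each), which is a log2 difference of -0.44 (SE 0.16; limma adjusted p = 0.365). Hk1, the constitutive hexokinase, read 386, 310 and 257 against 277, 283 and 270 by its brighter probe set (1437974_a_at). The groups overlapped, and the difference of -0.18 (SE 0.15; limma adjusted p = 0.657) was -0.03 without normal replicate 1. Its dimmer probe set (1420901_a_at) stood at -0.48 (SE 0.21; limma adjusted p = 0.431) and at -0.27 without that array.

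The 3 phosphofructokinases, isoenzymes of the main control step, did not run together. Pfkl, the liver form, read 1154, 1157 and 846 in normal and 740, 688 and 868 in knockout kidneys by its brightest probe set (1439148_a_at). Normal replicate 3 and knockout replicate 3 overlapped, and the other arrays lay apart. The means were 1052 ± 179 and 765 ± 92.6 (SD, n = 3 each), which is a log2 difference of -0.45 (SE 0.14; limma adjusted p = 0.293). Its other probe sets stood at -0.39 (SE 0.13) and -0.33 (SE 0.38). Pfkp, the platelet form, read 62.2, 26.5 and 45.4 in normal and 66.9, 77.0 and 68.9 in knockout kidneys (1416069_at). All knockout arrays were higher, normal replicate 1 nearly as high, and the difference was 0.75 (SE 0.30; limma adjusted p = 0.409). Without normal replicate 2, the lowest array, the Pfkp difference was 0.41. The other tested Pfkp probe set stood at -0.02 (SE 0.33). Pfkm, the muscle form, read 327, 295 and 308 against 290, 354 and 334, with overlap (0.07, SE 0.11). Pfkm was highest on knockout replicate 2, the array with the highest muscle marker signal. The muscle enolase Eno3 went the other way, at 361 on that array and 410 to 530 on the normal arrays. The part of muscle RNA in the Pfkm value was not tested. Pfkfb3, which makes the activator of these enzymes, stood at -0.10 (SE 0.15) and -0.12 (SE 0.33).

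Aldoa, the ubiquitous aldolase, had 5 probe sets, 4 below 0. The brightest (1416921_x_at) read 2222, 2878 and 2439 in normal and 2244, 2238 and 2322 in knockout kidneys. Normal replicate 1 lay at the knockout level, and the difference was -0.14 (SE 0.10; limma adjusted p = 0.609), or -0.04 without normal replicate 2. On 1439375_x_at the values were 1186, 1303 and 1097 against 993, 963 and 983, and on 1434799_x_at 2104, 2269 and 1834 against 1681, 1694 and 1734. Neither overlapped, and both differed by -0.28 (SE 0.09; limma adjusted p = 0.280 and 0.319). The probe set 1433604_x_at stood at -0.25 (SE 0.10; limma adjusted p = 0.410), with normal replicate 3 among the knockout values, and 1447734_x_at at 0.06 (SE 0.11). All 5 carry an x in their suffix, as do probe sets of Adm, Ndrg1, Slc2a3, Tpi1 and Pgk1, which Affymetrix gives to probe sets that may also bind other transcripts. Tpi1, the triose phosphate isomerase, lay at -0.17, -0.18 and -0.10 (SE 0.09, 0.08 and 0.09), 1 of 3 probe sets without overlap. Aldoc, the brain aldolase, overlapped (-0.16, SE 0.27).

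Lower glycolysis, from Gapdh to pyruvate kinase, had 5 of 6 tested probe sets below 0, against 51.9% of all probe sets. The median was -0.19 over 4 genes, and 0 passed in limma. At an unadjusted limma p under 0.05 there was 1 lower, against 5.72% of all probe sets. Gapdh was read only by control probe sets, which were not tested. On their 3 positions along the transcript the log2 difference was -0.06 (3′), -0.09 (middle) and -0.02 (5′). The 3′ one read 6539, 7258 and 6188 in normal and 6464, 6224 and 6470 in knockout kidneys, with full overlap. Pgk1, the phosphoglycerate kinase, gave 3 different answers. The brightest probe set (1417864_at) read 3507, 4484 and 3845 against 3687, 3326 and 3773, with overlap and a difference of -0.13 (SE 0.10; limma adjusted p = 0.643), which was -0.03 without normal replicate 2. On 1439435_x_at the values were 1365, 2351 and 1861 against 1281, 981 and 1107. Here all knockout arrays were lower, with a difference of -0.70 (SE 0.18; limma adjusted p = 0.202). Without normal replicate 1 it was -0.91 and passed (limma adjusted p = 0.0407). The third (1438640_x_at) stood at 0.15 (SE 0.15).

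Pgam1, the phosphoglycerate mutase, was lower on every knockout array by a small margin, at 2495, 2690 and 2462 against 2390, 2168 and 2340. Its difference was -0.15 (SE 0.08; limma adjusted p = 0.487). Pkm, the pyruvate kinase of most embryonic tissues, read 3161, 3062 and 2414 against 2534, 2203 and 2637, with normal replicate 3 inside the knockout range (-0.22, SE 0.12; limma adjusted p = 0.502). Eno2, an enolase typical of neurons, read 44.6, 25.6 and 23.7 against 25.6, 14.2 and 15.9, a difference of -0.74 (SE 0.38; limma adjusted p = 0.486). Knockout replicate 2 was under the filter level of 14.7 there, so the size of that difference is poorly measured. Eno2 was highest on normal replicate 1, where neural and chromaffin markers were highest as well. Knockout replicate 1, with a summed signal of 1662 for these markers, read 25.6, as did normal replicate 2 with 491. The part of neural RNA in the Eno2 value was not tested.

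Ldha, which reduces pyruvate to lactate, read 3865, 4956 and 4123 in normal and 3784, 3157 and 3813 in knockout kidneys (1419737_a_at). The groups did not overlap, with normal replicate 1 just above knockout replicate 3. The means were 4315 ± 570 and 3585 ± 370 (SD, n = 3 each), which is a log2 difference of -0.26 (SE 0.11; limma adjusted p = 0.424), from -0.34 to -0.16 with any 1 array left out. Pdk1, the kinase that keeps pyruvate out of mitochondria, showed no such order. Its brightest probe set (1423747_a_at) read 212, 220 and 457 in normal and 383, 296 and 296 in knockout kidneys, with normal replicate 3 above all other arrays. The difference was 0.22 (SE 0.27; limma adjusted p = 0.785), or 0.58 without that array. The other tested probe sets stood at 0.12 (SE 0.26) and -0.19 (SE 0.15).

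Array by array, the members did not vary as one block. Across all 59 probe sets, the median log2 deviation from the mean of the normal arrays was 0.07, -0.03 and -0.06 on normal replicates 1 to 3 and -0.18, -0.21 and -0.15 on knockout replicates 1 to 3. Over all probe sets tested, no array deviated by more than 0.04. In transport, glycolysis and pyruvate fate, normal replicate 2 was the highest array for 17 of 36 probe sets (47.2%, against 15.4% of all), and knockout replicate 2 the lowest for 17 (47.2%, against 15.2%). All 4 lower glycolysis genes were lowest on knockout replicate 2 by their brightest probe sets, and Hk2, Pfkl, Tpi1, Pgk1, Pgam1 and Ldha had both features. Neither feature was particular to the members. Of 8 pentose phosphate and gluconeogenesis genes, 6 were highest on normal replicate 2 and 5 lowest on knockout replicate 2. Of 22 genes of pyruvate entry and the citrate cycle it was 10 and 3. Over all genes by the brightest probe set the shares were 20.2% and 16.9%. In the HIF pathway genes and other hypoxia targets, normal replicate 1 was the highest array for 11 of 23 (47.8%, against 27.6%), and knockout replicate 2 was the lowest for 2. High values on normal replicate 2 went with signal strength: of all 2201 probe sets with a mean signal over 1000, 45.7% were highest on normal replicate 2. Of the 15 member probe sets in that range, of only 8 genes, 14 were highest there. On knockout replicate 2, 9 of the 15 were lowest, against 17.3% of the 2201.

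**Figure D3:**
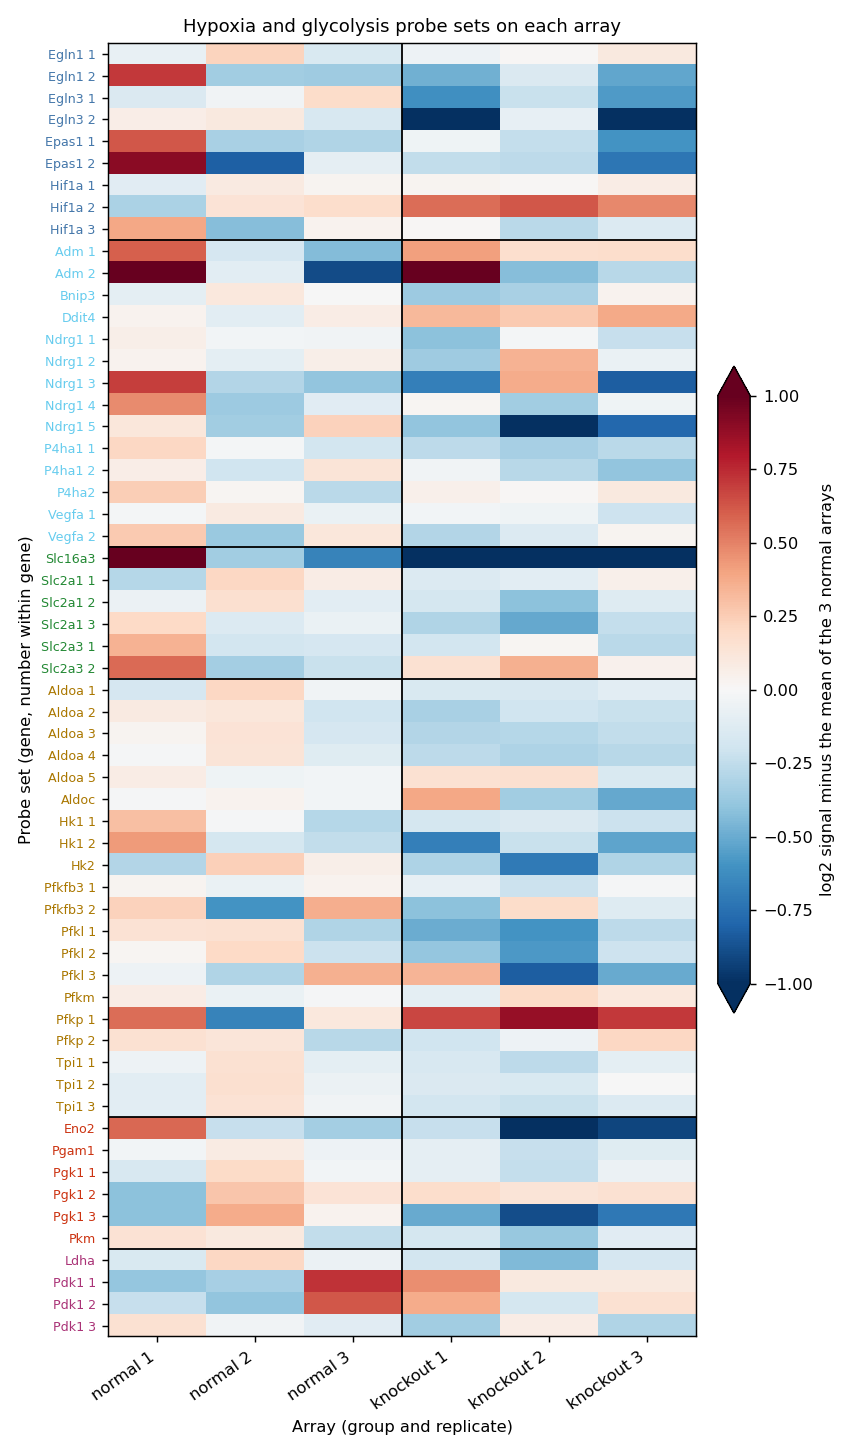
log2 signal minus the mean of the 3 normal arrays (colour; blue lower, red higher, limited to 1 either way) for the 59 tested probe sets (rows, by role) on the 6 arrays (columns). The block from Aldoa to Ldha is mostly pale red on normal replicate 2 and blue on the knockout arrays, deepest on knockout replicate 2, and Hif1a 2, Ddit4 and Pfkp 1 run the other way.

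Markers of other cell types varied between arrays. Skeletal muscle, itself glycolytic, had 13 of 15 markers above the filter, with a summed signal of 570 to 665 on normal arrays and 1567, 7934 and 732 on knockout replicates 1 to 3. The median deviation of the transport, glycolysis and pyruvate members was -0.18, -0.22 and -0.14 on these 3 arrays. Without knockout replicates 1 and 2 the median difference of all members was -0.15. Neural and chromaffin markers, 11 of 14 above the filter, summed to 2119, 491 and 707 on normal and 1662, 993 and 527 on knockout replicates 1 to 3. Without normal replicate 1 and knockout replicate 1, the arrays highest in them, 41 of 59 members (69.5%) were below 0, with a median of -0.13. Erythroid markers, 7 of 11 above the filter, summed to 12614 to 18165 in normal and 15791 to 22159 in knockout kidneys, mostly from the embryonic globin Hbb-y. All 7 were above 0, with a median of 0.86, where 50.6% of all genes by the brightest probe set were below 0. At an unadjusted limma p under 0.05, 3 were higher, against 6.14% of all genes. Of the 7, 1 was higher on every knockout array than on any normal array, against 10.2% of all genes. It was Klf1, also among those 3, which read 12.7 and 13.2 on normal replicates 1 and 3. Both values lie under the filter level of 14.7. The median deviation of the 7 erythroid markers on normal replicate 2 was 0.79. Of the macrophage markers 8 of 9 were above the filter. They summed to 816, 391 and 667 on normal and 744, 1180 and 819 on knockout replicates 1 to 3. All 8 were lowest on normal replicate 2 and highest on knockout replicate 2, against 17.6% and 18.3% of all genes. Of the 8, 7 were above 0, with a median of 0.61. At an unadjusted limma p under 0.05, 2 were higher, against 6.14% of all genes. On every knockout array 1 was higher, against 10.2% of all genes. No defining marker of these lists that passed the filter read 0 on any array. The fits without arrays high in muscle or neural markers drop all RNA of those arrays and cannot separate the part of a cell type. The part of muscle, neural, erythroid or macrophage RNA in the members' values was not tested.

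**Figure D4:**
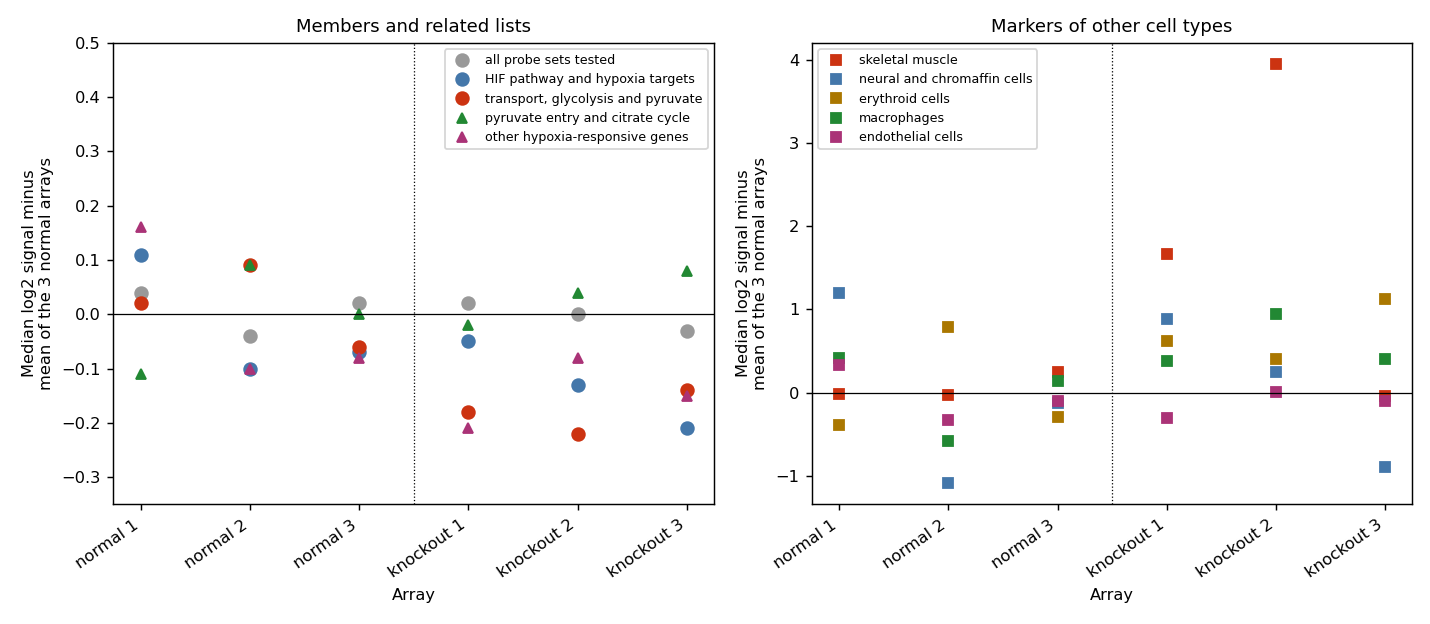
Median log2 signal minus the mean of the 3 normal arrays (y axis) on each array (x axis) for the members and related lists (left) and for markers of other cell types (right, wider scale). The transport and glycolysis members lie from -0.22 to -0.14 on the 3 knockout arrays while all probe sets stay within 0.04 of 0; muscle markers reach 3.95 on knockout replicate 2.

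Other genes of the pathway were read from lists of related genes, by the brightest probe set, and 0 of their members passed in limma over all probe sets tested. Of 27 other hypoxia-responsive genes, 19 were below 0 with a median of -0.13, 6 were lower and 0 higher at an unadjusted p under 0.05, and 8 were lower on every knockout array. Over all genes by the brightest probe set, 5.57% were lower and 6.14% higher at that p, and 9.10% were lower on every knockout array. Car12, a carbonic anhydrase induced by HIF, had the smallest p. It read 62.1, 69.1 and 59.4 in normal and 35.9, 32.9 and 25.7 in knockout kidneys, well apart, with a difference of -1.02 (SE 0.22; limma adjusted p = 0.116, and 0.0371 with the arrays centred on their median). Ak4, a mitochondrial adenylate kinase, followed at -0.56 (SE 0.17), from 188 ± 18.9 to 129 ± 24.0, and the collagen lysyl hydroxylase Plod1 at -0.51 (SE 0.17), from 200 ± 40.2 to 139 ± 18.8 (SD, n = 3 per group). Of 11 other HIF pathway genes 7 were below 0, with a median of -0.02. Cited2, which competes with HIF for its coactivator, stood at -0.38 (SE 0.12), the HIF partner Arnt2 at 0.25 (SE 0.10) and the ubiquitin ligase scaffold Cul2 at 0.18 (SE 0.11). With the mean of all its probe sets, Arnt2 was at -0.04.

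Among 10 other glycolysis isoenzymes 5 were below 0, with a median of -0.05. Those with the smallest p were Eno3, the muscle enolase, at -0.28 (SE 0.12), Bpgm, the red cell enzyme that makes bisphosphoglycerate, at 0.40 (SE 0.17), and the liver and red cell pyruvate kinase Pklr at -0.73 (SE 0.41). The pentose phosphate pathway and gluconeogenesis, 8 genes, had 7 below 0 and a median of -0.12, led by Pgls (-0.19, SE 0.11), Tkt (-0.15, SE 0.10) and Rpe (-0.14, SE 0.12), all overlapping.

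Genes of pyruvate entry and the citrate cycle were evenly split. The list holds enzymes that burn pyruvate in mitochondria and also kinases that, like Pdk1, keep it out, among them Pdk2. Of 22 measured, 11 were below 0, with a median of 0.00, and at an unadjusted p under 0.05 there were 3 higher and 0 lower, against 6.14% and 5.57% of all genes. Sdha, the flavoprotein of succinate dehydrogenase, read 1250, 1573 and 1484 in normal and 1806, 1879 and 1693 in knockout kidneys, above all normal arrays, with a difference of 0.33 (SE 0.10; limma adjusted p = 0.280). Pdk2, a pyruvate dehydrogenase kinase, read 40.1, 37.7 and 39.6 against 64.4, 77.1 and 54.8 (0.73, SE 0.21; limma adjusted p = 0.254). Dlat, a subunit of pyruvate dehydrogenase, stood at 0.21 (SE 0.09), also with no overlap. Whether this list differs from the glycolytic members was not tested.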

How the data were processed

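Whole mouse kidneys at embryonic day 12.5 were measured on 6 Affymetrix arrays, 3 per group, grouped by sample title. The deposited intensity is a linear signal per probe set made with MAS5, per the submitters' processing notes; its version is not given in the sources used here. Each array's mean trimmed by 2% at each end was 150, and array medians spanned 0.37 on the log2 scale, so no further scaling was applied. Before taking log2, 1.7, the 10th percentile of all values above 0, replaced the 15 zeros. Of 45101 probe sets 64 controls were left out, and the 27022 with a mean log2 signal above the 40th percentile entered a fit in limma 3.58.1 (R 4.3.3; eBayes with an intensity trend, Benjamini-Hochberg adjustment over all 27022); the fit was tested on simulated data. Gene symbols came from the platform annotation, updated by gene identifier for related lists. Of 45037 non-control probe sets 34945 had 1 symbol, 932 several and 9160 none. Values are given for member genes with an unadjusted p under 0.05 in any probe set, for 8 genes fixed by name, and for the 3 smallest p of each related list; other members are given by their differences, and by their values too for Bnip3, P4ha1, Pfkm, Pgam1, Pkm, Eno2 and Gapdh, chosen after these were seen. Members, lists and tests were chosen with earlier results of these data known. Alternatives covered scaling, filters, pseudocount 16, variance model, array weights, replicate block, probe set averaging and left-out arrays.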

Additional observations from a re-analysis of the deposited data

How the results depend on the processing

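The number of arrays limits every value. The count of probe sets past the threshold was 157; it was 447 with arrays centred on the median, 41 without the intensity trend, and 65 genes with each gene's probe sets averaged. With 1 array left out it ran from 49 (without knockout replicate 3) to 148, with 58, 63 and 95 without knockout replicates 1 and 2 and normal replicate 3. The count of members past it was 0, but 1 with centred arrays (Slc16a3) and from 0 to 1 with 1 array left out (Pgk1, without normal replicate 1). The median difference of the members stayed between -0.20 and -0.13 in all alternatives run. Members lower on every knockout array numbered 13, but 4 with centred arrays, and 16 to 22 with 1 array left out, where the rule is easier to meet (12.8% to 16.5% of all probe sets). In fits chosen after seeing the data, without normal 1 and knockout 1 the counts were 31 and 20 (20.5% of all probe sets), and without knockout 1 and knockout 2, which assumes that the lone knockout array varies like the normal ones, 27 and 28 (28.2%). Of 41 named differences 34 kept their sign throughout. Those that reversed were Epas1 (-0.45 to 0.02 with 1 array left out, the highest without normal replicate 1), Hif1a (-0.01 without that array to 0.08, and -0.01 without normal 1 and knockout 1), Slc2a1 (-0.21 to 0.04, the highest without normal replicate 2, and 0.05 without knockout 1 and knockout 2), Pdk1 (-0.10 without normal 1 and knockout 1), Arnt2 (-0.04) and Rpe (0.12) with probe sets averaged, and Pgls (0.02) and Rpe (0.00) without knockout 1 and knockout 2. The cause was not tested. Same-numbered arrays share only a number: their deviations from the group means correlated at 0.083, -0.108 and -0.201. With the replicate block 109 probe sets and 0 members passed, and it changed no call of a member.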
